A study of Danio rerio with 12 samples.

Results

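Serine, glycine and D-amino acid enzymes were followed through the arrays of the series as a set of 10 genes, dao.1, phgdh, psat1, psph, shmt1, shmt2, gldc, gcshb, amt and sdsl. Every probe set that the array annotation gives to one of these symbols was taken, which yielded 8 probe sets for 7 genes out of 15502 probe sets for 9025 genes tested. For psph, amt and sdsl no probe set carried the symbol, and these 3 genes were not analysed here. The genes were chosen with earlier results in view, that is, selected on the morphine and control signals of these same arrays. On these arrays dao.1 was lower, and gcshb and the probe set annotated to shmt1 and a second gene were higher. The differences between morphine and control are therefore given for the members as a description, with the call that each probe set received in the fit over all probe sets and without p-values.

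The morphine group consisted of 6 pools of wild-type AB strain embryos kept from 5 hours post fertilization (hpf) in E3 medium with 10 nM morphine. The control group consisted of 6 pools of AB embryos without treatment. Both were collected at 24 hpf, each pool held about 100 whole embryos, and each was hybridized to 1 Affymetrix Zebrafish Genome Array. Values are log2 signals, so that a difference of 1 is a change of signal by a factor of 2. In whole embryos, fewer cells of a type and less RNA per cell cannot be told apart.

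Serine is made from the glycolytic intermediate 3-phosphoglycerate by the enzymes encoded by phgdh, psat1 and psph, in that order. Serine hydroxymethyltransferase, in a cytosolic form (shmt1) and a mitochondrial form (shmt2), splits serine into glycine and a one-carbon unit carried by folate. The mitochondrial glycine cleavage system, with the decarboxylase gldc, the lipoyl carrier gcshb and the aminomethyltransferase amt, breaks glycine down and yields another one-carbon unit. D-amino acid oxidase is a peroxisomal flavoenzyme, and dao.1 is one of the zebrafish genes listed for it. The enzyme oxidizes D-amino acids such as D-serine, which together with glycine is a co-agonist of the NMDA receptor. In mammals the oxidase is found mainly in kidney, liver and astrocytes, and the enzymes of the glycine cleavage system are abundant in liver and in glia.

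Array medians were 5.81 to 5.85 on the log2 scale and pairwise array correlations were 0.990 to 0.999. On the first principal component of all probe sets, morphine replicate 1 lay at -12.9 and control replicates 1 and 2 at -11.2 and -22.4, while the other 9 arrays lay between 0.26 and 13.1. The same arrays had a low difference between the 3′ and 5′ actin control probe sets, a measure of RNA integrity and labelling, which was 3.51 on morphine replicate 1 and 3.58 and 3.62 on control replicates 1 and 2, against 4.12 to 5.32 on the other morphine arrays and 4.58 to 4.93 on the other controls. None of the 3 calls described below for members was lost without these 3 arrays or with the actin difference as a covariate. Markers of neurons, muscle, blood and epidermis were present, as whole embryos should show, with highest mean signals over the 12 arrays of 8.36, 13.7, 13.1 and 13.7 in these lists.

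Of the 8 member probe sets, 2 were called higher with morphine (gcshb and the shmt1 probe set), 1 was called lower (dao.1) and 5 were not called (phgdh, psat1, gldc and both of shmt2). A call is a limma p-value, adjusted over all 15502 probe sets, under 0.10. Over the whole array 6.85% of probe sets were called, 3.13% higher and 3.72% lower. The contrast was known when the set was drawn up, so that the member counts carry no weight beside these shares. The median difference of the members was 0.06 and that of all probe sets was 0.01.

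**Figure D1:**
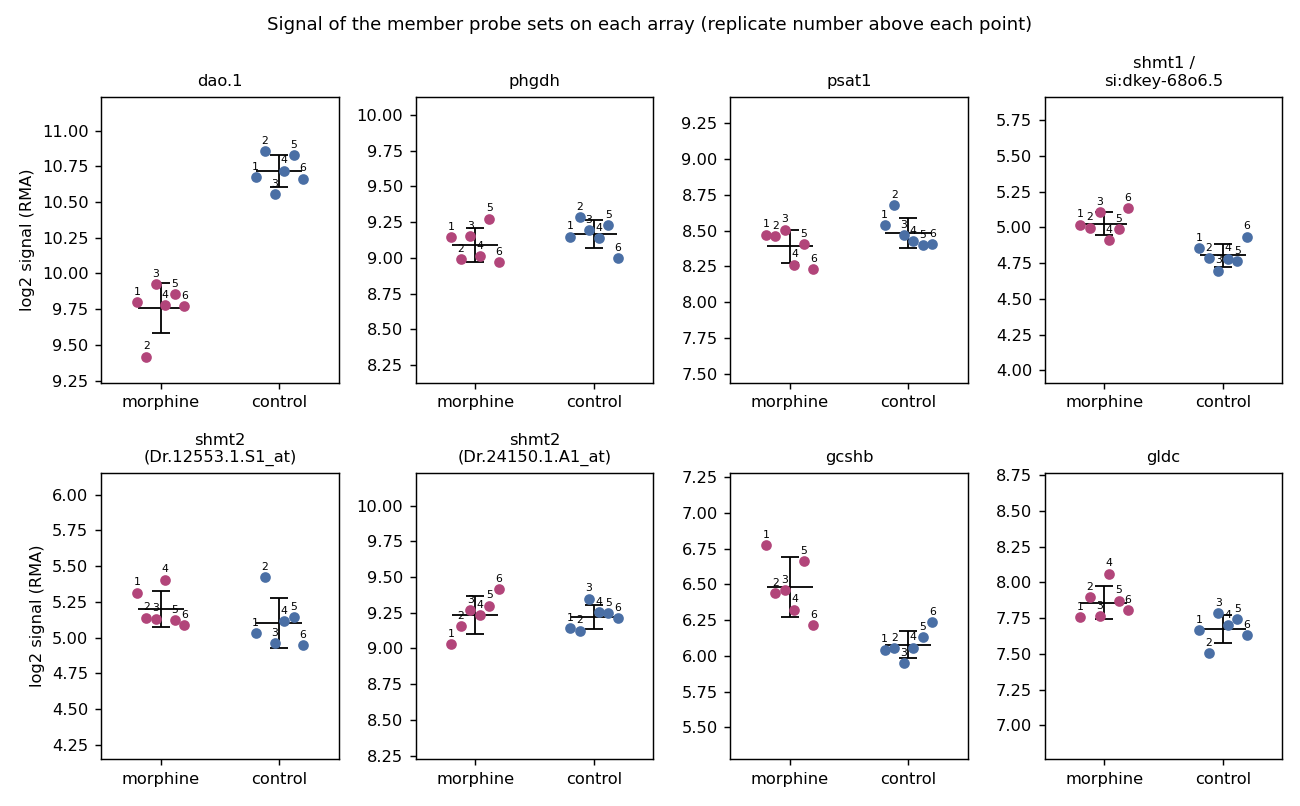
Log2 signal of each of the 8 member probe sets on the 6 morphine and 6 control arrays, with points numbered by replicate and with the mean and SD of each group; each panel spans 2 log2 units. The dao.1 arrays separate by group, at 9.42 to 9.92 with morphine and 10.56 to 10.85 in control, while the other 7 probe sets overlap.

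Among the members, dao.1 changed most. Its signal on morphine replicates 1 to 6 was 9.80, 9.42, 9.92, 9.78, 9.85 and 9.77, against 10.68, 10.85, 10.56, 10.72, 10.83 and 10.66 on control replicates 1 to 6. All 6 morphine arrays lay below all 6 controls, and dao.1 was the only member whose groups did not overlap, which was so for 3.61% of all probe sets. The mean was 9.76 ± 0.18 with morphine and 10.72 ± 0.11 in control (SD, n = 6 each), a difference of -0.96 on the log2 scale (standard error 0.08, 95% interval -1.13 to -0.79), or a signal 1.94-fold lower with morphine. Only 7 of the 15502 probe sets had a more negative difference.

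Within the morphine group, dao.1 on replicate 2 stood below the other 5 arrays, which lay between 9.77 and 9.92. Without that array the difference of dao.1 was -0.89, the smallest in size over all alternatives. Between arrays of the same replicate number the differences ran from -0.63 in pair 3 to -1.44 in pair 2. All 6 were negative, as any pairing of groups that do not overlap must give, so that the count adds nothing.

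Markers of several cell types moved on the same arrays. Of 17 probe sets of a marker list for liver and yolk syncytial layer, 8 were lower with morphine, 1 was higher and 8 were not called, where 3.72% and 3.13% of all probe sets were lower and higher. The lower ones included fgg, a fibrinogen chain, at -0.49 (standard error 0.09, limma adjusted p = 0.00253) and rbp4, the retinol carrier of plasma, at -0.43 (standard error 0.07, limma adjusted p = 0.00154). The apolipoprotein gene apoea was higher at 0.56 (standard error 0.07, limma adjusted p = 0.000232). The call of tfa, which encodes transferrin, at -0.20 was lost without morphine replicate 2, control replicate 4 or control replicate 6 (limma adjusted p = 0.1095, 0.1002 and 0.1073). The sum of the linear signals of this list was 55666 to 59841 on morphine arrays and 59838 to 62774 on controls. The hepatocyte gene fabp10a was dim in both groups, at 3.98 with morphine and 3.99 in control. Of 12 pronephros probe sets, 1 was higher and 0 were lower, and the sum was 784 to 902 with morphine and 774 to 851 in control. Of 11 probe sets of radial glia, slc1a3a (limma adjusted p = 0.089) and glula (limma adjusted p = 0.0679) were higher. Of the 2 of glulb, 1 was lower (limma adjusted p = 0.0876). None of these glial calls had an adjusted p under 0.05. Of 17 muscle probe sets, 3 were lower and 1 was higher. Both probe sets of mylpfa, a fast muscle myosin light chain, were lower, at -0.72 (standard error 0.09, limma adjusted p = 0.000179, no overlap) and -0.40 (standard error 0.09, limma adjusted p = 0.0195). The fast troponin T gene tnnt3a was lower as well, at -0.19 (limma adjusted p = 0.037). For ttn.2, a titin gene, 1 probe set was higher at 0.29 (limma adjusted p = 0.0163). Its other probe sets were not called, with differences of -0.02, 0.03 and -0.06. The sum of the muscle list was 39019 to 49007 with morphine and 42143 to 48734 in control. Of 8 blood probe sets, cahz, a carbonic anhydrase, was lower at -0.27 (limma adjusted p = 0.0424) and 7 were not called, and the sum was 20753 to 23433 with morphine and 21618 to 23767 in control. None of the 13 neuron and 8 epidermis probe sets was called by limma or by SAM, with 0 and 2 at an unadjusted p under 0.05. The part of these cell types in the dao.1 result was not tested.

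The enzymes of serine synthesis were close between the groups. phgdh, the dehydrogenase of the first step, had 9.14, 8.99, 9.15, 9.01, 9.27 and 8.97 on morphine replicates 1 to 6, against 9.15, 9.29, 9.19, 9.14, 9.23 and 9.0 on control replicates 1 to 6. Morphine replicates 2 and 6 lay just below every control, and the groups otherwise overlapped. The difference was -0.08 (standard error 0.06) with a 95% interval of -0.21 to 0.06.

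psat1, the aminotransferase of the next step, had 8.47, 8.46, 8.51, 8.26, 8.4 and 8.23 on morphine replicates 1 to 6, against 8.54, 8.68, 8.47, 8.43, 8.4 and 8.4 on control replicates 1 to 6. Morphine replicates 4 and 6 lay below every control, and the other 4 fell within the control range. The difference was -0.09 (standard error 0.065, 95% interval -0.23 to 0.04). Neither enzyme was called under any alternative.

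The probe set that carries shmt1, the cytosolic serine hydroxymethyltransferase, is annotated to a second gene as well, si:dkey-68o6.5, so that its signal cannot be given to shmt1 alone. It had 5.02, 5.00, 5.11, 4.91, 4.99 and 5.13 on morphine replicates 1 to 6, against 4.85, 4.79, 4.70, 4.78, 4.76 and 4.94 on control replicates 1 to 6. The groups met only where morphine replicate 4 lay below control replicate 6, and the other 5 morphine arrays were above every control. The means were 5.03 ± 0.08 and 4.80 ± 0.08 (SD, n = 6 each) in morphine and control, a rise of 0.22 (standard error 0.05, 95% interval 0.11 to 0.34), or 1.17-fold. The probe set was dim, in a table where mean signals ran from 2.87 to 14.3. When probe sets had to reach a signal of 5 on 6 arrays it was dropped, and the 22 alternatives that kept it all called it higher. All 6 pairs of the same replicate number had the higher signal with morphine, by 0.13 to 0.41. Only a pair of morphine replicate 4 with control replicate 6 could have gone the other way, so that the count adds little.

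For shmt2, the mitochondrial form, neither of the 2 probe sets was called. The shmt2 probe set ending in A1_at had 9.03, 9.16, 9.27, 9.23, 9.30 and 9.42 on morphine replicates 1 to 6, against 9.14, 9.12, 9.35, 9.25, 9.25 and 9.21 on control replicates 1 to 6. The lowest and the highest of the 12 values were both on morphine arrays. The difference was 0.01 (standard error 0.06, 95% interval -0.12 to 0.15).

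The shmt2 probe set ending in S1_at had 5.31, 5.14, 5.13, 5.41, 5.12 and 5.08 on morphine replicates 1 to 6, against 5.03, 5.42, 4.96, 5.12, 5.14 and 4.95 on control replicates 1 to 6. Control replicate 2 was the highest of all 12 arrays. The difference was 0.10 (standard error 0.08, 95% interval -0.08 to 0.27), and without control replicate 2 it was 0.16. Deviations of the 2 shmt2 probe sets from their group means had a Pearson correlation of -0.519 (permutation p = 0.0779) and a Spearman correlation of -0.559 (permutation p = 0.0645) over the 12 arrays, and without the 2 arrays farthest from the median of the S1_at probe set the Pearson correlation was -0.613. Among the 28 pairs of member probe sets described below these had adjusted p-values of 0.346 and 0.448.

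Of the 2 members from the glycine cleavage system, gcshb was called higher and gldc was not called. gcshb, the lipoyl carrier or H protein, had 6.77, 6.44, 6.46, 6.32, 6.66 and 6.21 on morphine replicates 1 to 6, against 6.04, 6.05, 5.95, 6.06, 6.13 and 6.23 on control replicates 1 to 6. Morphine replicate 6 lay just below control replicate 6, and the other 5 morphine arrays were above every control. The means were 6.48 ± 0.21 with morphine and 6.08 ± 0.10 in control (SD, n = 6 each), a rise of 0.40 (standard error 0.08, 95% interval 0.22 to 0.58), or 1.32-fold. Pairs of the same number ranged from 0.73 in pair 1 to -0.02 in pair 6. The spread of gcshb within groups was above that of 81.9% of probe sets, and without control replicates 1 and 2 and morphine replicate 1 its difference was 0.33.

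gldc, the glycine decarboxylase or P protein, had 7.75, 7.90, 7.76, 8.06, 7.87 and 7.80 on morphine replicates 1 to 6, against 7.67, 7.5, 7.78, 7.70, 7.74 and 7.63 on control replicates 1 to 6. Control replicate 3 reached into the morphine range, and 4 morphine arrays were above every control. The difference was 0.19 (standard error 0.06, 95% interval 0.05 to 0.32), or 1.14-fold, and gldc was not called over all probe sets, although it was without morphine replicate 1. The probe sets of gldc and phgdh bear the same cluster number in their names, and the 6 probe sets of that cluster are annotated to 6 different genes.

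**Figure D2:**
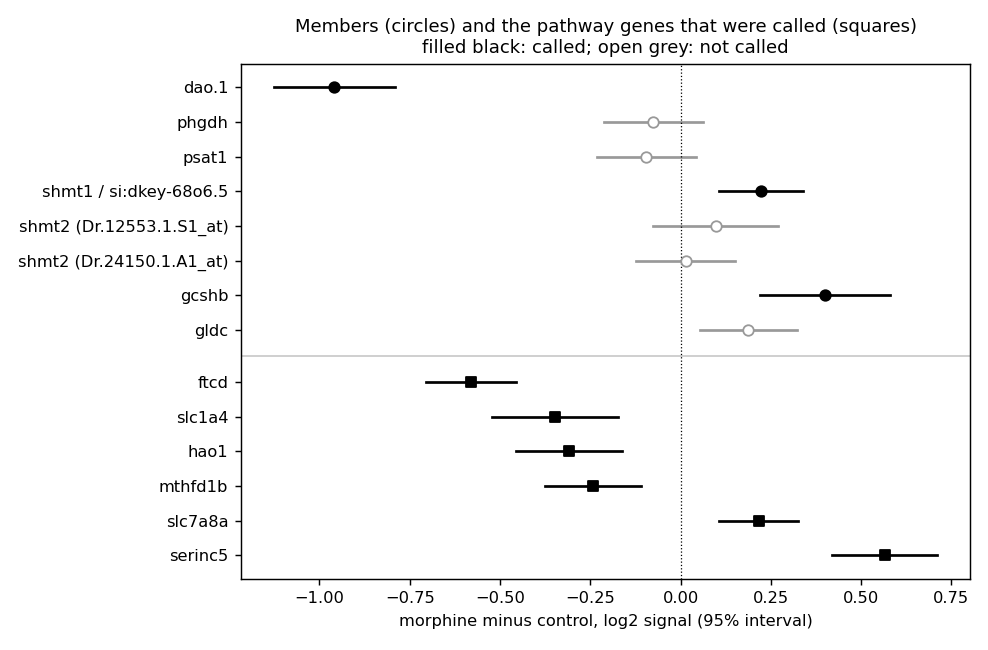
Difference between morphine and control on the log2 scale, with its 95% interval from limma, for the 8 member probe sets (circles) and the 6 probe sets of the pathway lists that were called (squares); black filled symbols were called and grey open symbols were not. Intervals are adjusted neither for the number of probe sets nor for the choice of members on these same signals. That of gldc, at 0.05 to 0.32, leaves out 0 although gldc was not called.

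**Figure D3:**
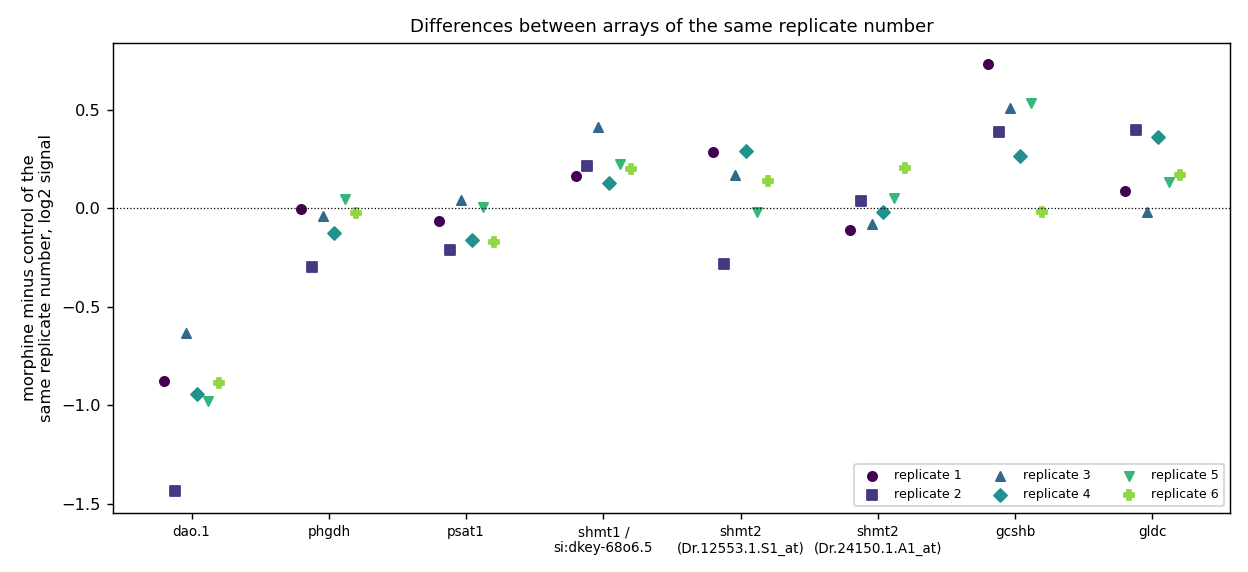
Difference in log2 signal between the morphine and the control array of the same replicate number, for the 8 member probe sets and 6 pairs. dao.1 is below 0 in 6 of 6 pairs, as any pairing of its groups would give. The shmt1 probe set, which is annotated to a second gene as well, is above 0 in 6 of 6, while gcshb and gldc are above 0 in 5 of 6. Any pairing would give at least 5 of 6 for shmt1, gcshb and gldc, so that these counts add little.

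For the 28 pairs of member probe sets, correlations of the deviations from the group means were computed across the 12 arrays. None passed an adjusted p under 0.05, with 0 pairs by Pearson and 0 by Spearman correlation, and 2 pairs by each at an unadjusted p under 0.05. The strongest by rank was that of the shmt1 probe set with gldc, with a Pearson r of -0.638 (permutation p = 0.0371, adjusted p = 0.346) and a Spearman rho of -0.776 (permutation p = 0.00647, adjusted p = 0.103). Without the 2 arrays farthest from the median of the shmt1 probe set, r was -0.717. The next was dao.1 with phgdh, with r of 0.556 (permutation p = 0.0782, adjusted p = 0.346) and rho of 0.734 (permutation p = 0.00735, adjusted p = 0.103), and r of 0.763 without the 2 arrays farthest in dao.1. The 2 enzymes of serine synthesis, phgdh and psat1, had r of 0.555 (permutation p = 0.0797, adjusted p = 0.346) and rho of 0.573 (permutation p = 0.08, adjusted p = 0.448), and r of 0.628 without the 2 arrays farthest in phgdh. By Pearson correlation, psat1 with gldc was the other pair at an unadjusted p under 0.05. It had r of -0.618 (permutation p = 0.0446, adjusted p = 0.346) and rho of -0.559 (permutation p = 0.0782, adjusted p = 0.448).

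The genes whose deviations were most like those of the called members over the 12 arrays were sought among probe sets with a single gene and a mean signal of at least 5. For dao.1 they were ndufa2 (Pearson r 0.925, Spearman rho 0.895), ssrp1a (r 0.905, rho 0.909) and selenoh (r 0.877, rho 0.825). For the shmt1 probe set they were itm2cb (r 0.940), sh3d21 (r 0.872) and chchd3a (r 0.852), and for gcshb they were slc39a9 (r 0.945), ddx55 (r 0.941) and fgf6a (r 0.914). These are the extremes of a search over the whole array and carry no p. None of the 9 was called between the groups by limma.

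The wider pathway was read from lists of genes that make, use, carry or sense serine and glycine. Of 130 genes in these lists besides the members, 64 were found by symbol with a probe set of their own, with 79 probe sets in all. Of these, 2 were higher with morphine, 4 were lower and 73 were not called. That is a share of 7.59%, near the 6.85% of all probe sets. With the replicate number as a block 10 were called, the same 6 and tyms, mthfd2 and serinc1 lower and gatm higher, in a fit that called 9.98% of all probe sets. The median difference was -0.01, beside 0.01 over all probe sets. SAM called 7 of the 79 pathway probe sets, 2 higher and 5 lower, and 1129 of all probe sets.

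**Figure D4:**
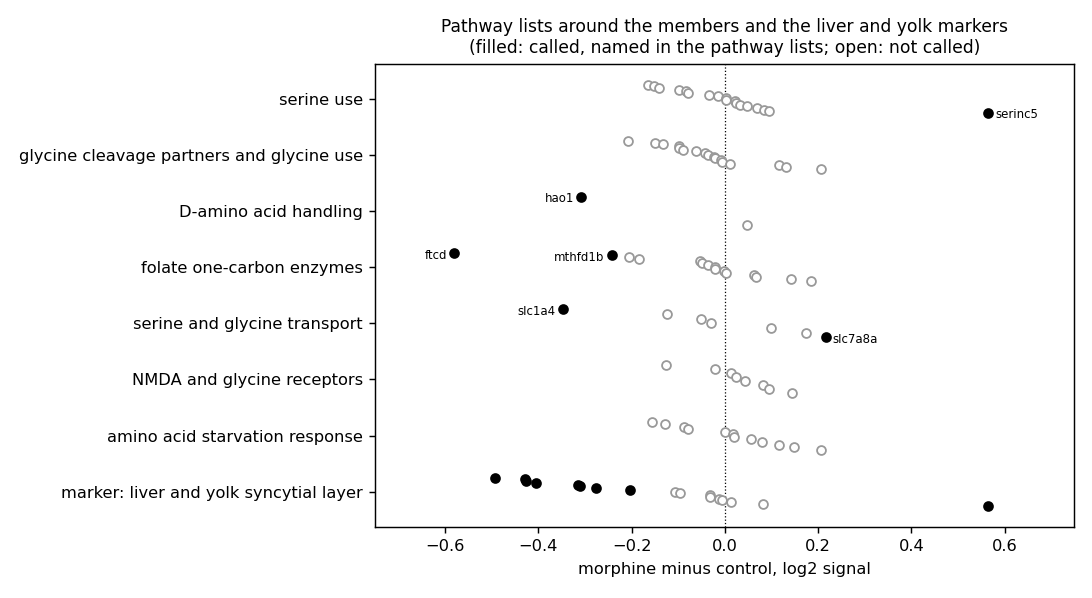
Difference between morphine and control in log2 signal for each probe set of the 7 pathway lists and of the liver and yolk syncytial layer markers, 1 row per list. The 6 called pathway probe sets are named, ftcd lies farthest to the left at -0.58 and serinc5 farthest to the right at 0.57, and open points were not called.

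For folate one-carbon metabolism, which takes up the units that serine and glycine release, 11 of 24 genes were found by symbol with a probe set of their own. The gene dhfr, which the study names among those lower with morphine, was listed but not found in this way. Of the 15 probe sets found, 2 were lower and 0 were higher by limma. SAM called 3 of the 15. ftcd, a liver enzyme of histidine breakdown that passes one-carbon units to folate, had 7.51, 7.70 and 7.80 as lowest, median and highest of the morphine arrays, against 8.22, 8.25 and 8.33 of the controls. The groups did not overlap, and the difference was -0.58 (limma adjusted p = 1.77e-05, standard error 0.06). mthfd1b, a relative of the cytosolic C1-tetrahydrofolate synthase of mammals, was lower by a smaller step, with 10.3, 10.5 and 10.6 on morphine arrays and 10.6, 10.7 and 10.9 on controls as lowest, median and highest. Its difference was -0.24 (standard error 0.06, limma adjusted p = 0.0347), and 5 morphine arrays lay below every control. mthfd2, the mitochondrial enzyme that receives the unit made by shmt2, averaged 8.61 ± 0.15 with morphine and 8.82 ± 0.06 in control (SD, n = 6 each) and missed the threshold at -0.21 (limma adjusted p = 0.103). It passed with the replicate block (limma adjusted p = 0.0887). tyms, thymidylate synthase, had a difference of -0.18 (limma adjusted p = 0.178, and 0.0979 with the replicate block).

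The partners of the glycine cleavage system were not called. Of 17 probe sets for these partners and for other uses of glycine, 0 were higher and 0 were lower by limma, 0 were called by SAM and 1 had an unadjusted p under 0.05 (differences of -0.21 to 0.21), and with the replicate block gatm, the first enzyme of creatine synthesis, was higher at 0.21 (limma adjusted p = 0.0284). gcsha, the other H protein gene, averaged 9.07 ± 0.18 with morphine and 9.20 ± 0.12 in control (SD, n = 6 each), a difference of -0.13 with a 95% interval of -0.30 to 0.04. Whether the change of gcsha differed from that of gcshb was not tested. dldh, the dihydrolipoamide dehydrogenase or L protein, had a difference of -0.21 with a 95% interval of -0.42 to 0.005.

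Serine racemase, which forms D-serine and which the study names among the genes lower with morphine, was not among the genes found here by symbol. Of the D-amino acid list only 2 of 8 genes were found by symbol with a probe set of their own. hao1, the peroxisomal glycolate oxidase of liver, which does not act on D-amino acids, had 9.09, 9.23 and 9.41 on morphine arrays and 9.41, 9.54 and 9.77 on controls as lowest, median and highest. The difference was -0.31 (limma adjusted p = 0.0151, standard error 0.07), with 5 morphine arrays below every control. cat, catalase, which removes the hydrogen peroxide that such oxidases make, changed by 0.05 with a 95% interval of -0.09 to 0.19, at a low signal of 4.58 with morphine and 4.53 in control.

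Among 7 probe sets of carriers for serine and glycine, 1 was higher and 1 was lower. slc1a4, a transporter of serine and other small neutral amino acids, had 6.59, 6.83 and 7.00 on morphine arrays and 6.96, 7.20 and 7.32 on controls as lowest, median and highest. It was lower, at -0.35 (standard error 0.08, limma adjusted p = 0.0212), and 5 morphine arrays lay below every control. slc7a8a, the light chain of a broad neutral amino acid exchanger, was higher by 0.22 at 1 of its 2 probe sets (standard error 0.05, limma adjusted p = 0.0219), where the morphine arrays lay at 7.91 to 8.13 and the controls at 7.69 to 7.84. The other slc7a8a probe set had a difference of 0.10 with a 95% interval of -0.09 to 0.29.

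Among 18 probe sets of the list for serine use, which holds enzymes and membrane proteins of the serinc family, serinc5 was higher and 17 were not called. serinc5 belongs to a membrane protein family named for serine incorporation and known in human cells for limiting the infectivity of retroviruses. It had 7.61, 7.80 and 7.90 on morphine arrays and 7.01, 7.25 and 7.33 on controls as lowest, median and highest, a rise of 0.57 (standard error 0.07, limma adjusted p = 0.000109), or 1.48-fold, with no overlap. The family member serinc1 had a difference of -0.15 (limma adjusted p = 0.366, and 0.0997 with the replicate block).

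None of the 8 probe sets for NMDA and glycine receptors was called by limma, with or without the replicate block, or by SAM, 2 had an unadjusted p under 0.05, and all 8 had mean signals under 5 over the 12 arrays, with differences of -0.13 to 0.14. Of the 12 probe sets of the amino acid starvation response, which in mammals drives phgdh, psat1 and shmt2 through ATF4, 0 were called by limma, with or without the replicate block, 0 by SAM, and 1 had an unadjusted p under 0.05. atf4a had a difference of 0.15 with a 95% interval of -0.0011 to 0.30, and atf4b of 0.21 with a 95% interval of -0.01 to 0.42. asns, asparagine synthetase, had differences of -0.08 and -0.16 at its 2 probe sets.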

How the data were processed

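Log2 signals of 12 Affymetrix Zebrafish Genome Arrays were used, 6 of morphine and 6 of control pools. The deposited log2 values came from the authors' use of RMA, which corrects background, normalizes arrays by quantiles and summarises the probes of each probe set. Its version is not given in the sources used. Probe intensities were not used here. The number of arrays limits the precision, and pools are separate biological replicates per the labels.

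The table held 15617 probe sets, from which 115 controls of the manufacturer were removed. Of the 15502 tested, 10795 carry 1 gene in the GEO annotation of the array, 135 carry several and 4572 carry none. Symbols were updated by gene identifier through the current reference annotation. A list gene was taken only from probe sets with 1 gene.

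Each probe set was compared in R 4.3.3 by the two-sided test of limma 3.58.1 without covariates, with Benjamini-Hochberg adjustment over all 15502 and calls below 0.10, which is the threshold of the study's methods. Differences are morphine minus control. The members, lists and alternatives were chosen with earlier results of these data known. Every member probe set was named, with every called probe set of the pathway lists and the 3 most similar genes of each called member. Genes that were not called, and markers, were named after their values were seen. Lists were described by counts and medians. Correlations between members used 100000 permutations of arrays within groups, two-sided.

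Alternatives were SAM, the test of the methods, with 100 permutations and a q-value under 0.10, robust eBayes with a mean-variance trend, weights for arrays, a renewed quantile normalization, centring of arrays on their medians, filters, an adjusted p under 0.05, the actin difference as a covariate and arrays left out. After removal of group means, arrays of the same replicate number had correlations of 0.225 to 0.471, all above 0.1. Their mean was 0.302, against -0.058 between arrays of different numbers. Only 1 of 6 morphine arrays and 2 of 6 control arrays correlated best with their own number in the other group. The numbers were taken to pair the arrays, although the sources do not say what they stand for. A fit blocked on replicate number was a further alternative. The tests were run first on simulated arrays. Python 3.11.15 and matplotlib 3.10.9 made the figures.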

Additional observations from a re-analysis of the deposited data

Results flagged for a closer look

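In groups of 6 arrays, 1 array can stand apart from the others by a gap that takes up most of the range of the group. Among 46 groups tested, which covered the members, the called pathway probe sets and the genes most like the called members, 3 held such an array, where chance gives about 1 in 20. dao.1 on morphine replicate 2 was at 9.42, below 9.77 to 9.92 on the other morphine arrays, a gap of 0.704 of the range. ssrp1a, one of the genes most like dao.1, was at 9.27 on the same array, below 9.48 to 9.6 on the others. It was chosen because its deviations on these arrays followed those of dao.1, so that it is not a separate case. The rate of 1 in 20 does not hold for genes chosen in that way. slc7a8a was at 8.13 on morphine replicate 6, above 7.91 to 7.99 on the other morphine arrays.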

How the results depend on the processing

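The calls of dao.1, gcshb and the shmt1 probe set kept their direction and their side of the threshold under every alternative run that kept the probe set, with differences of -0.99 to -0.89, 0.33 to 0.45 and 0.20 to 0.25. The shmt1 probe set was removed by the filter on dim probe sets, under which 2 members were called. gldc passed without morphine replicate 1, at 0.21, and under none of the other alternatives. phgdh, psat1 and the shmt2 probe set ending in S1_at stayed uncalled with the same sign throughout. The shmt2 probe set ending in A1_at, at 0.01 and not called, changed sign with array weights (-0.0039), the actin difference as a covariate (-0.011), without morphine replicate 6 (-0.023), without control replicate 1 (-0.0022) and without control replicate 2 (-0.0054). Leaving out 1 array gave -0.0226 to 0.0550 for it. Leaving out 1 array gave 3 to 4 called members, 6 to 8 called pathway probe sets, 14 to 19 called marker probe sets against 18 with all arrays, and 779 to 1152 of all probe sets against 1062. With the replicate block, 10 pathway probe sets were called against 6 without it, and 1547 of all probe sets. The block changed no call of a member. The causes of these shifts were not tested. Dim probe sets, among them that of shmt1 and all of the NMDA and glycine receptors, have low signals.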

Other observations

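Genes that lie next to the members in chromosome order were read as a description, with 5 array genes on each side of each of the 7 members, 70 genes and 81 probe sets in all. Of these, 1 was higher with morphine and 6 were lower, where 3.13% and 3.72% of all probe sets were higher and lower. Beside dao.1, si:dkey-234h16.7 was lower at -0.25 (standard error 0.06, limma adjusted p = 0.0242) and sart3, a splicing factor, was higher at 0.24 (standard error 0.07, limma adjusted p = 0.0845), each 2 array genes away, while the direct neighbours isg15 and coro1ca were not called. Next to gldc, coq2 of ubiquinone synthesis was lower at -0.28 (standard error 0.08, limma adjusted p = 0.0414). Near shmt2, pck1, the cytosolic phosphoenolpyruvate carboxykinase of gluconeogenesis, was lower at -0.31 (standard error 0.05, limma adjusted p = 0.00208). Near gcshb, cyb5b was lower at -0.51 (standard error 0.15, limma adjusted p = 0.0618) and 1 probe set of eif4g2a was lower at -0.23 (limma adjusted p = 0.0321). Near shmt1, cacna1ha was lower at -0.25 (limma adjusted p = 0.0257).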
